A study of Mus musculus with 6 samples.

Results

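The Fos and Jun genes of the AP-1 transcription factors are described here as they were measured in S100a10 cells of the mouse cerebral cortex after prolonged fluoxetine. Those 8 genes are Fos, Fosb, Fosl2, Jun, Junb, Jund, Jdp2 and Atf3. Every probe set that the array's annotation assigns to 1 of these symbols alone was taken, which gave 12 of the 45037 probe sets on the array after its controls were left out. At least 1 probe set of each gene, and 10 of the 12 in all, had a geometric mean intensity of 50 or more over the arrays and entered the test, which ran over 22326 probe sets. The other two, a second probe set of Jund and one of Jdp2, are given as values without a test.

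The data comprised 6 arrays, 3 from mice given fluoxetine, a serotonin reuptake inhibitor antidepressant, and 3 from mice given vehicle. Fluoxetine was given at 0.167 mg/ml in a 1% saccharine drinking solution, the vehicle was the same saccharine solution alone, and treatment lasted 15 to 18 days in both groups. All the mice were bacTRAP mice of line ES691, controls included, and had been backcrossed from FVB onto C57BL/6 for 3 to 5 generations; their age and sex are not given in the sources used here. In such a line the control region of a chosen gene, here S100a10, drives a tagged ribosomal protein, and RNA on the tagged ribosomes is pulled out of cortex tissue (translating ribosome affinity purification, TRAP). Each array is called a biological replicate, without a statement of whether its RNA came from 1 mouse or from a pool, so p-values measure the spread between these samples, which may be partly technical. The submitters state that the line also labels some cells that are not neurons. In RNA pooled from many cells, fewer cells of a type and less RNA per cell cannot be told apart.

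AP-1 is not a single protein but a family of dimers held together by leucine zippers. Fos proteins cannot pair with themselves and need a Jun partner, whereas Jun proteins can also pair with each other or with factors of the ATF family, and the pair reads the DNA letters TGACTCA or a close relative of them. Fos, Fosb, Junb and Atf3 are classic immediate early genes: their messenger RNA is made within minutes of strong neuronal firing, growth factors or stress and is then destroyed quickly. Jund is made more steadily, and a truncated form of FosB is known for building up in forebrain neurons under repeated stimulation, antidepressants among them. Jdp2 encodes a small partner that mostly represses AP-1 sites.

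The starts of 6 members are shown because Fos, Fosb, Fosl2, Jund and Atf3 on one side and Jun on the other stood farthest from the other arrays, in opposite directions, on fluoxetine array 1. Each line is the stretch from 250 bases before to 50 bases after the gene's start in the RefSeq table for GRCm38.p6, read 5′ to 3′ along the gene. Capitals mark TGACG, the half-site of cyclic AMP response factors, in either orientation, and TGACATCA, a site of the Jun and ATF type; the windows of Fosl2 and Jund hold neither.
Fos (chr12:85473640-85473939, plus strand): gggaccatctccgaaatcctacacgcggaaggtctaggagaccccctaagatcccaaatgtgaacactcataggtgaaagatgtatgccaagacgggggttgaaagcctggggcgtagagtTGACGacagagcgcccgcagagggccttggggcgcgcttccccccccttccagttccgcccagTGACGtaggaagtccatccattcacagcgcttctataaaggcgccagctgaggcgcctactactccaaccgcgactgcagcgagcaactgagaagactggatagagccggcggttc
Fosb (chr7:19309996-19310295, minus strand): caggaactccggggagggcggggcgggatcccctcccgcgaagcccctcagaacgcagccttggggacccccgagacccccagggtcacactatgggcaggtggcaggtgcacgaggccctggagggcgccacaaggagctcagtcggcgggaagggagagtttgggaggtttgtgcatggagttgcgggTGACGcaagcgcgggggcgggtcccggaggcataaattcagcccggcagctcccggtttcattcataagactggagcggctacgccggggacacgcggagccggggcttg
Fosl2 (chr5:32136222-32136521, plus strand): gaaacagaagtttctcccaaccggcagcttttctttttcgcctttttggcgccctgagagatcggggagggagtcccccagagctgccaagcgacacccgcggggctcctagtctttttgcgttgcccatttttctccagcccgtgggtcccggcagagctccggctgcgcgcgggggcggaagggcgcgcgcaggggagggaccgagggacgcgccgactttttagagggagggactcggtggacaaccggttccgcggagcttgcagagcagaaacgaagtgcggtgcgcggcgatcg
Jund (chr8:70697489-70697788, plus strand): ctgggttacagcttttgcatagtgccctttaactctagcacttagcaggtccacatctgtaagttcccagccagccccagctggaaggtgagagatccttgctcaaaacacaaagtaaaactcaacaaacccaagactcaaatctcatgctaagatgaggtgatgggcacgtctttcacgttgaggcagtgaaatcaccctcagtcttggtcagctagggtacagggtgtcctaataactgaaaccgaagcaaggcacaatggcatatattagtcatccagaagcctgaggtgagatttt
Atf3 (chr1:191183284-191183583, minus strand): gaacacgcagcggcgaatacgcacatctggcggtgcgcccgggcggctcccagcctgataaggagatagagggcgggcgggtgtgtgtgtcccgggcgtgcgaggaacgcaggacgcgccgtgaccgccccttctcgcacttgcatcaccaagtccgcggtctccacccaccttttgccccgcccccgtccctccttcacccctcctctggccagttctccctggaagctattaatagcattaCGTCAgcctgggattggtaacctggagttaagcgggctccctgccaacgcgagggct
Jun (chr4:95052173-95052472, minus strand): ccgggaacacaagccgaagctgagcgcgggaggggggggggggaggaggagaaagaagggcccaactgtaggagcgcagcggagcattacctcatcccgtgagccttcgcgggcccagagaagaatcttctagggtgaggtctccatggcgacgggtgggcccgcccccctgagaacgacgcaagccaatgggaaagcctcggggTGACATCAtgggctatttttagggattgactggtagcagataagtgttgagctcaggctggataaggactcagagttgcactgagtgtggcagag

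TGACG on either strand was found in windows of 5 of the 8 members (Fos, Fosb, Junb, Atf3 and 1 of the 3 windows of Jdp2), against 20.8% of all 32851 windows of that length in the table. In Fos it lay at bases -129 to -125 and again at -66 to -62 from the start. In Fosb it lay at -60 to -56, and in Atf3 at -7 to -3 on the opposite strand. TGACATCA was found in Jun alone, at -45 to -38, against 3.62% of all windows. The full AP-1 site TGACTCA, its cyclic AMP relative TGACGTCA and the CArG box of serum response factor were found in 0 of the 8, against 5.2%, 1.79% and 1.63% of all windows, on both strands and with overlaps allowed. These are matches of letters in a short window and say nothing about binding. Sites more than 250 bases before the start were not searched, so a motif absent from a window may still lie farther out. In the RefSeq order of coding genes on mouse chromosome 12, Jdp2 lies between Fos and Batf, another leucine zipper gene.

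The deposited values are intensities after GCRMA, a normalization for these arrays, on a linear scale. The arrays had median intensities between 47.3 and 48.6, and upper quartiles from 498 on fluoxetine 2 to 574 on vehicle 2. Of the markers of cortical pyramidal neurons, 6 of 8 had a probe set of their own and all of those passed the filter, and their summed intensity was 13382 to 15626 on fluoxetine arrays and 14536 to 14763 on vehicle arrays. Astrocyte markers were present too, 9 of 9, at 40674 to 54045 on fluoxetine arrays and 42606 to 47466 on vehicle arrays. Among these, Gfap passed the filter only through the fluoxetine arrays. Microglial markers passed in 5 of 8 cases (Aif1, P2ry12 and Itgam did not), and endothelial markers in 4 of 6 (Pecam1 and Tek did not). No marker was listed at exactly 0.

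Fluoxetine was compared with vehicle to ask whether the translated RNA of these factors differs after prolonged treatment. Of the 10 tested AP-1 probe sets 8 had lower means with fluoxetine, and the 2 with higher means were both of Jun. By gene, 7 of 8 were lower, with a median difference of −0.38 on the log2 scale. The median of all tested probe sets was −0.06, and 66.3% of them were below 0. Fosb, counted among the lower genes, passed the filter only through the vehicle arrays. With a minimum of 100, Fosb and the dimmer probe set of Fosl2 drop out. Then 6 of 8 AP-1 probe sets were lower (median −0.34), against 69.3% of all those tested. None of the 10 passed limma's moderated test with Benjamini-Hochberg adjustment over all tested probe sets, and each had an adjusted p of 0.999. No probe set on the array passed either, 0 of 22326 (0%).

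At an unadjusted p under 0.05 there were 4 AP-1 probe sets (Fos, Jund, Jdp2 and the brighter of Fosl2), all lower, against 1.78% of all tested probe sets lower and 0.739% higher at that level. This background split turned with scaling, to 209 lower and 267 higher after quantile normalization and 170 and 327 with a common median, in place of 398 and 165, and after either scaling none of the AP-1 probe sets kept an unadjusted p under 0.05. The 3 fluoxetine arrays lay entirely below the 3 vehicle arrays for 3 AP-1 probe sets, those of Fos, Jund and Jdp2, against 5.23% of all tested probe sets. For no AP-1 probe set that was tested did they lie entirely above, against 2.83% of all.

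**Figure D1:**
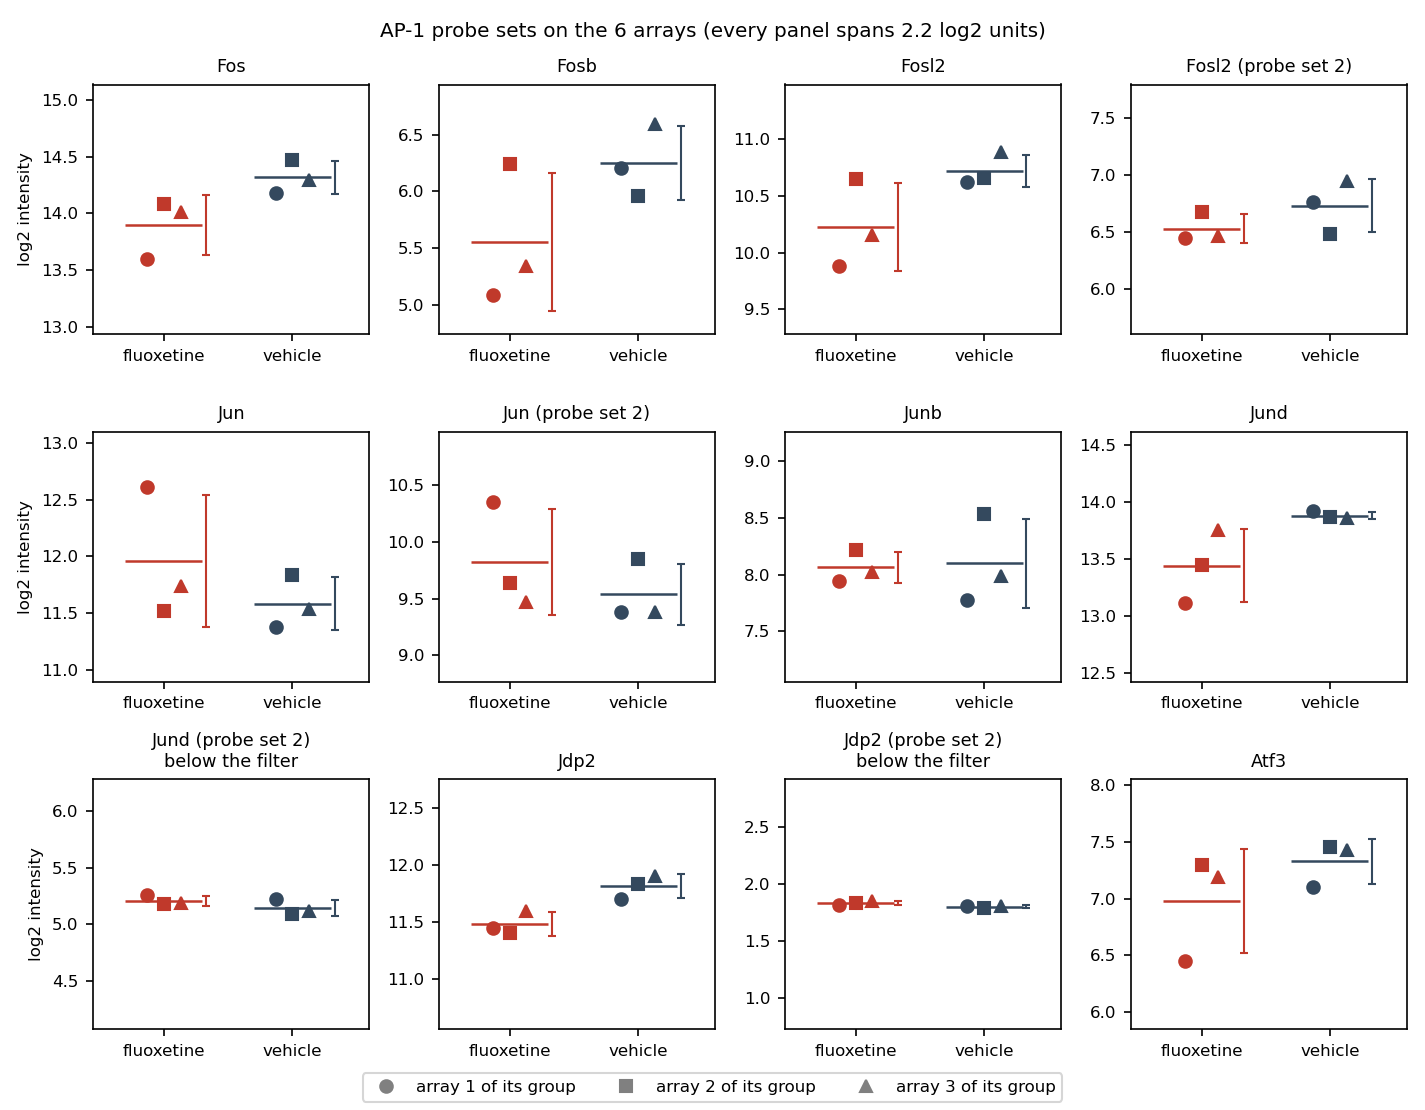
Log2 intensity of the 12 AP-1 probe sets on each array, fluoxetine left and vehicle right; markers are arrays, horizontal lines group means and bars the SD of 3 arrays. The groups do not overlap for Fos, Jund and Jdp2, and fluoxetine 1 (circle) is the lowest point for Fos, Fosb, Fosl2, Jund and Atf3 and the highest for both probe sets of Jun.

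Fos, the usual marker of recently active neurons, was measured by the probe set 1423100_at. Its intensity was 12388, 17380 and 16542 on fluoxetine arrays 1 to 3 and 18531, 22720 and 20126 on vehicle arrays 1 to 3. Every fluoxetine value was below every vehicle value, but fluoxetine 2 lay nearer to vehicle 1 than to fluoxetine 1. The log2 means were 13.90 ± 0.26 with fluoxetine and 14.32 ± 0.15 with vehicle (SD, n = 3 each). The difference was −0.42 ± 0.16 (SE), a fold of 0.749 with a 95% interval of 0.573 to 0.978, and limma gave an unadjusted p of 0.038 and an adjusted p of 0.999. Without fluoxetine 1 the difference was −0.27, and without both fluoxetine 1 and vehicle 2, the lowest and the highest array, it was −0.19. Leaving out arrays at these ends must shrink the difference, so only the size of the change can be read.

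Fosb, the relative of Fos that also gives the long-lived truncated form, was dim on its single probe set, 1422134_at. Arrays 1 to 3 read 34.0, 75.6 and 40.5 with fluoxetine, and 73.6, 62.0 and 96.6 with vehicle. Fluoxetine 1 and 3 lay below all vehicle arrays, while fluoxetine 2 lay above vehicle 1 and 2. The difference was −0.70 ± 0.31 (log2, SE), with a 95% interval of −1.43 to 0.04. Fosb passed the filter only through the vehicle arrays, the geometric mean of its fluoxetine arrays being below it, so the size of its difference is not ranked against the other genes. In limma its unadjusted p was 0.061 and its adjusted p 0.999. Without fluoxetine 2 it was −1.04 and without fluoxetine 1 it was −0.46. The probe set cannot separate the full-length and the truncated form in these files, since no probe positions were used.

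Fosl2, which encodes Fra-2, a later and more persistent Fos protein, had a bright and a dim probe set. The bright one, 1437247_at, measured 940 on fluoxetine 1, 1604 on fluoxetine 2 and 1141 on fluoxetine 3, against 1573, 1610 and 1888 on vehicle arrays 1 to 3. As for Fosb, fluoxetine 1 and 3 were the low arrays and fluoxetine 2 lay among the vehicle arrays, above vehicle 1. The log2 difference was −0.49 ± 0.20 (SE; limma unadjusted p = 0.047, adjusted p = 0.999). It was −0.70 without fluoxetine 2 and −0.32 without fluoxetine 1. The dim probe set, 1422931_at, read 87.3, 102 and 88.3 with fluoxetine and 109, 89.4 and 124 with vehicle. Its groups overlapped and its difference was −0.20 ± 0.15, in the same direction as the bright one.

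Jun, a possible partner of Fos proteins, had the only higher means among the tested AP-1 probe sets, on both of its own. The brighter, 1448694_at, measured 6274 on fluoxetine 1, 2929 on fluoxetine 2 and 3420 on fluoxetine 3, against 2664, 3657 and 2975 on the vehicle arrays. Fluoxetine 1 stood far above the other five, which ran together with no separation by treatment. The log2 means were 11.96 ± 0.58 with fluoxetine and 11.58 ± 0.23 with vehicle (SD, n = 3 each). The difference of 0.37 ± 0.29 (SE) had a 95% interval of −0.30 to 1.05 and a limma adjusted p of 0.999. Without fluoxetine 1 it was 0.043. The second probe set, 1417409_at, gave the same picture, with 1308 on fluoxetine 1, 794 on fluoxetine 2 and 710 on fluoxetine 3, against 667, 923 and 667 with vehicle. Its difference was 0.28 ± 0.25, and 0.015 without fluoxetine 1.

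Junb, the Jun relative that usually appears with Fos after stimulation, was measured by 1415899_at. It read 247, 298 and 260 with fluoxetine and 219, 372 and 255 with vehicle, so the fluoxetine arrays lay inside the vehicle range. The difference was −0.04 ± 0.21 (log2, SE) with a 95% interval of −0.52 to 0.44, and its sign turned with scaling (0.011 after quantile normalization and 0.022 with a common median) and without fluoxetine 1 (0.019) or vehicle 2 (0.18). In folds the interval runs from 0.697 to 1.36 and includes the fold of Fos, so whether Junb differs by that much cannot be judged from these arrays.

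Jund, the steadily made Jun relative, was bright on 1449117_at. Intensity was 8879, 11195 and 13862 with fluoxetine, against 15521, 14940 and 14853 with vehicle. The vehicle arrays were nearly alike (log2 SD 0.034), whereas the fluoxetine arrays were spread out below them (SD 0.32), fluoxetine 3 close under the lowest vehicle array. The log2 difference was −0.44 ± 0.17 (SE), a fold of 0.737, with a limma unadjusted p of 0.036 and an adjusted p of 0.999. It was −0.28 without fluoxetine 1 and −0.60 without fluoxetine 3. The second probe set of Jund, 1440265_at, read 36.2 to 38.3 with fluoxetine and 34.2 to 37.4 with vehicle, below the filter and near the floor, so nothing was read from it.

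Jdp2, the repressing partner, had the smallest unadjusted p of the family. Its probe set 1450350_a_at had intensities of 2784, 2707 and 3101 with fluoxetine, and of 3318, 3653 and 3839 with vehicle. The groups did not overlap, and unlike Fos and Jund the fluoxetine arrays were close to each other. Log2 means were 11.48 ± 0.10 with fluoxetine and 11.81 ± 0.11 with vehicle (SD, n = 3 each). The difference was −0.33 ± 0.12 (SE), a fold of 0.795 with a 95% interval of 0.656 to 0.963, an unadjusted p of 0.026 and an adjusted p of 0.999 in limma. It stayed between −0.39 and −0.28 when any 1 array was left out. The other probe set, 1424972_at, read 3.46 to 3.62 on all 6 arrays, near the lowest value in the table (1.74), and no difference was read from it.

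Atf3, a stress-induced partner that pairs with Jun proteins, was dim on 1449363_at. It read 87.4, 157 and 146 on fluoxetine arrays and 137, 175 and 173 on vehicle arrays. Fluoxetine 1 was far below the rest, and fluoxetine 2 and 3 lay between vehicle 1 and the other vehicle arrays. The difference of −0.35 ± 0.24 (log2, SE; limma unadjusted p = 0.18, adjusted p = 0.999) was −0.085 without fluoxetine 1.

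**Figure D2:**
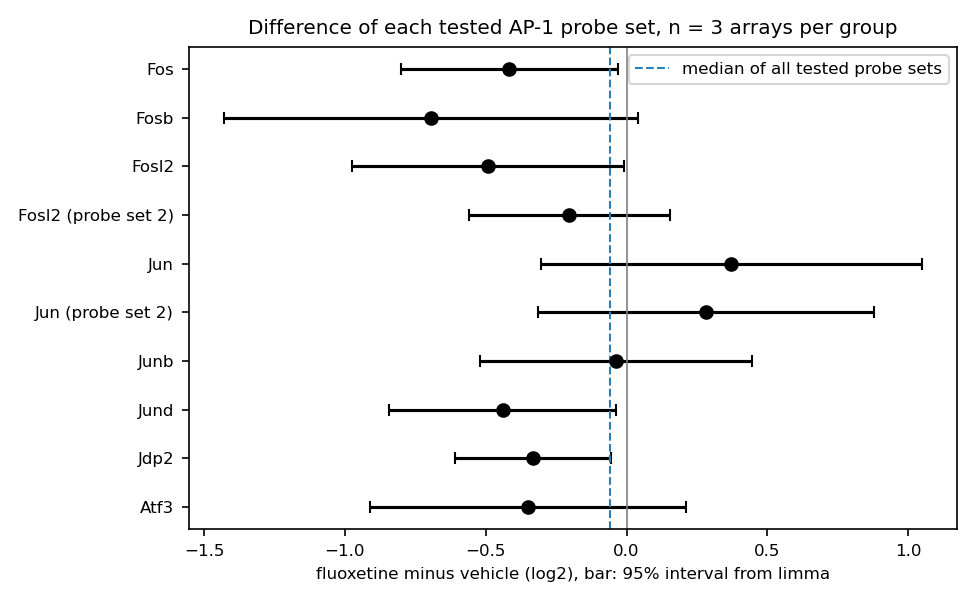
Fluoxetine minus vehicle in log2 for the 10 tested AP-1 probe sets, with 95% intervals from limma; the dashed line is the median of all tested probe sets (−0.06). The intervals of Fos, the bright probe set of Fosl2, Jund and Jdp2 end just below 0, while those of Jun, Junb, Fosb, Atf3 and the dim probe set of Fosl2 cross it.

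The members therefore differed in how much of their difference came from a single array. Fluoxetine 1 was the lowest of the 6 arrays for 6 of the 10 tested AP-1 probe sets, against 18.5% of all tested probe sets. Those 6 include Fosb, which passed the filter only through the vehicle arrays. It was the highest array for the 2 of Jun, against 24.1% of all. Set against the mean of the other 5 arrays, fluoxetine 1 deviated by −0.61 for Fos, −0.98 for Fosb, −0.71 for Fosl2, −0.66 for Jund and −0.85 for Atf3, and by 1.01 for Jun (log2). Over all tested probe sets the median deviation of that array was 0.013. Among the 6 arrays it ran from −0.07 on fluoxetine 2 to 0.10 on vehicle 2, so some shift of whole arrays remained. A shift that GCRMA had already removed cannot be read from these values. Leaving fluoxetine 1 out brought Jun and Atf3 close to 0, at 0.043 and −0.085. Fos was then at −0.27, Fosb at −0.46, the bright probe set of Fosl2 at −0.32 and Jund at −0.28. Each of these was nearer to 0 than with all arrays. Leaving out the lowest fluoxetine array must raise a difference, and leaving out the highest must lower that of Jun. Only the sizes of these changes can therefore be read, not their directions. Jdp2 moved little, from −0.33 to −0.31.

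Within single arrays, the log2 intensity of Jun minus that of Fos was −0.98 on fluoxetine 1 but −2.57 and −2.27 on fluoxetine 2 and 3, against −2.80, −2.64 and −2.76 on vehicle arrays 1 to 3. The vehicle arrays held this within an SD of 0.085, and of the fluoxetine arrays number 1 stood furthest from them. Fos minus Jund held no array that stood apart in this way, at 0.48, 0.63 and 0.26 with fluoxetine and 0.26, 0.60 and 0.44 with vehicle. Since probes differ in brightness, these are differences between signals whose absolute size has no meaning, and only their change between arrays can be read. In shape over the 6 arrays, each centred on its mean, the closest pair of different members was Fos and Atf3, with a root-mean-square distance of 0.13 in log2, followed by Fos and Jund at 0.15.

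**Figure D3:**
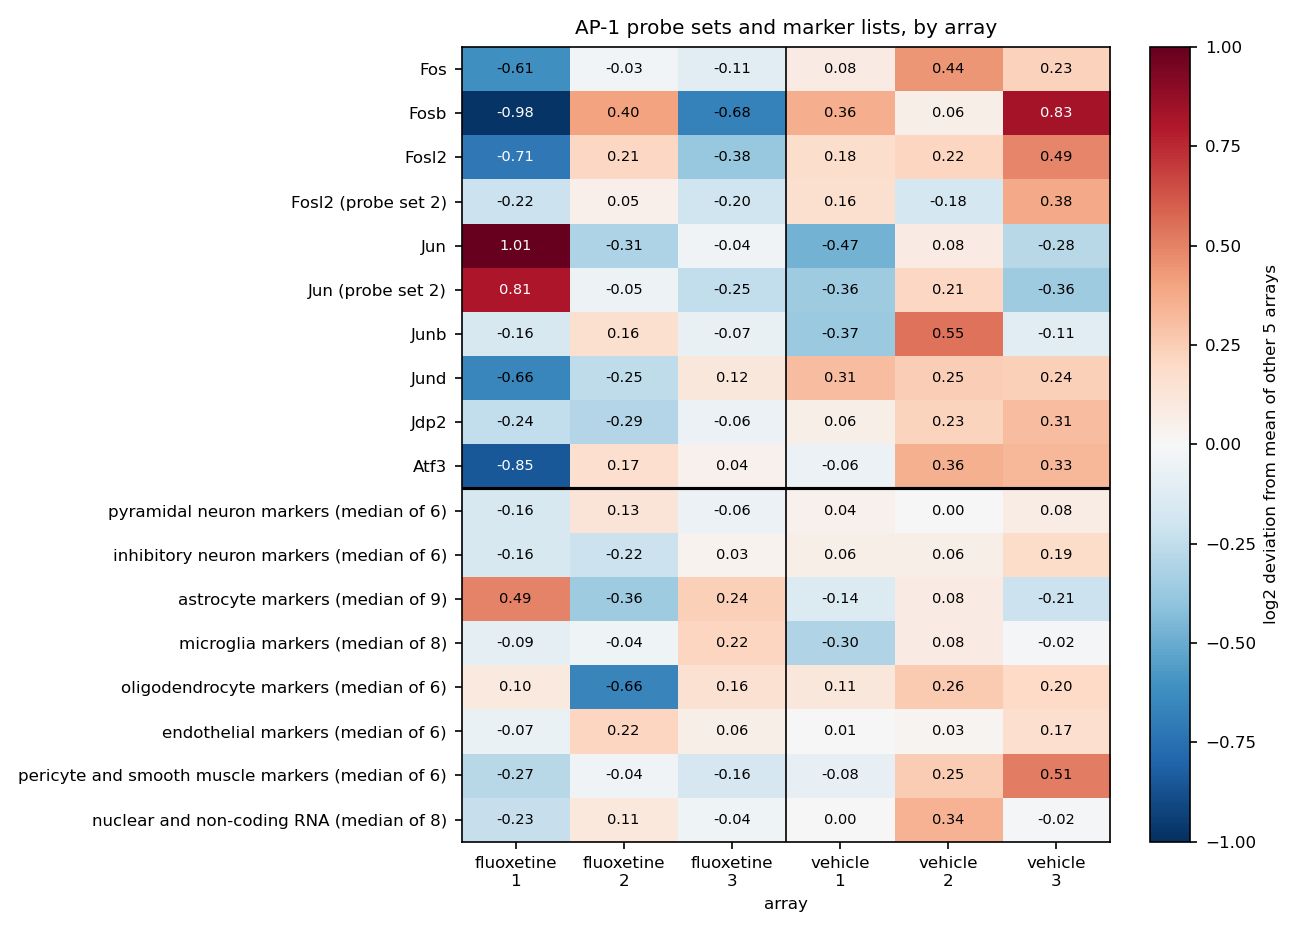
Log2 deviation of each array from the mean of the other 5, for the 10 tested AP-1 probe sets (above the line) and as medians over lists of marker genes (below it), fluoxetine arrays left and vehicle arrays right. Fluoxetine 1 is low for Fos, Fosb, Fosl2, Jund and Atf3, high for Jun (1.01) and high for astrocyte markers (0.49); fluoxetine 2 is low for oligodendrocyte (−0.66) and astrocyte markers (−0.36); vehicle 3 is high for Fosb (0.83) and for pericyte and smooth muscle markers (0.51).

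Some marker lists moved on the same arrays. Astrocyte markers deviated by a median of 0.49 on fluoxetine 1 and were highest there in 6 of 9 cases. On fluoxetine 2, the array on which Fosb and Fosl2 were highest within the fluoxetine group, they deviated by −0.36 and were lowest in 5 of 9 cases. Gfap, the filament gene of reactive astrocytes, had log2 values of 12.13, 4.49 and 9.02 on fluoxetine arrays and 4.70, 5.24 and 5.67 on vehicle arrays. Sox9, an astrocyte transcription factor gene, was at 8.89, 8.74 and 8.68 with fluoxetine and at 8.17, 8.16 and 8.23 with vehicle, a difference of 0.58 ± 0.11 (SE; limma unadjusted p = 0.0011, adjusted p = 0.999). The astrocyte list as a whole was mixed. Of 9 tested, 6 had higher means with fluoxetine and 3 lower ones (Gja1, Slc1a2 and Slc1a3), with a median difference of 0.09. Gfap, counted among the 6 higher, passed the filter only through the fluoxetine arrays, the geometric mean of its vehicle arrays being below it. Oligodendrocyte markers also stood low on fluoxetine 2, by a median of −0.66, and were lowest there in 5 of 6 cases. Their summed intensity was 13603 to 22220 with fluoxetine and 20404 to 22155 with vehicle, and 5 of 5 tested had lower means with fluoxetine (median −0.19), whereas 5 of 5 tested microglial markers had higher ones (median 0.18). Nuclear and non-coding transcripts, listed as a check of RNA quality, deviated by −0.23 on fluoxetine 1 and by 0.34 on vehicle 2, with summed intensities of 906 to 1569 with fluoxetine and 986 to 2040 with vehicle. The lowest sums were those of fluoxetine 1 (906) and vehicle 3 (986), although the list's median deviation on vehicle 3 was −0.02. Of that list 6 of 8 passed the filter. Vehicle 3, the highest array for Fosb, Fosl2 and Jdp2, was also the highest for 5 of 6 vessel-wall markers, that is, of pericytes and smooth muscle. These markers summed to 6901 to 9217 with fluoxetine and 8583 to 13496 with vehicle, and 5 of the 5 that passed the filter were lower with fluoxetine (median −0.41). The median deviation of pyramidal neuron markers was at most 0.16 in size on any array, but single markers moved more. Camk2a stood at 9.38 in log2 on vehicle 1 and at 10.17 to 10.96 on the other arrays, and Slc17a7 at 9.13 on fluoxetine 3 and 8.95 on vehicle 2, against 9.68 to 10.30 on the rest. The part of these cell types and of RNA quality in the AP-1 values was not tested.

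**Figure D4:**
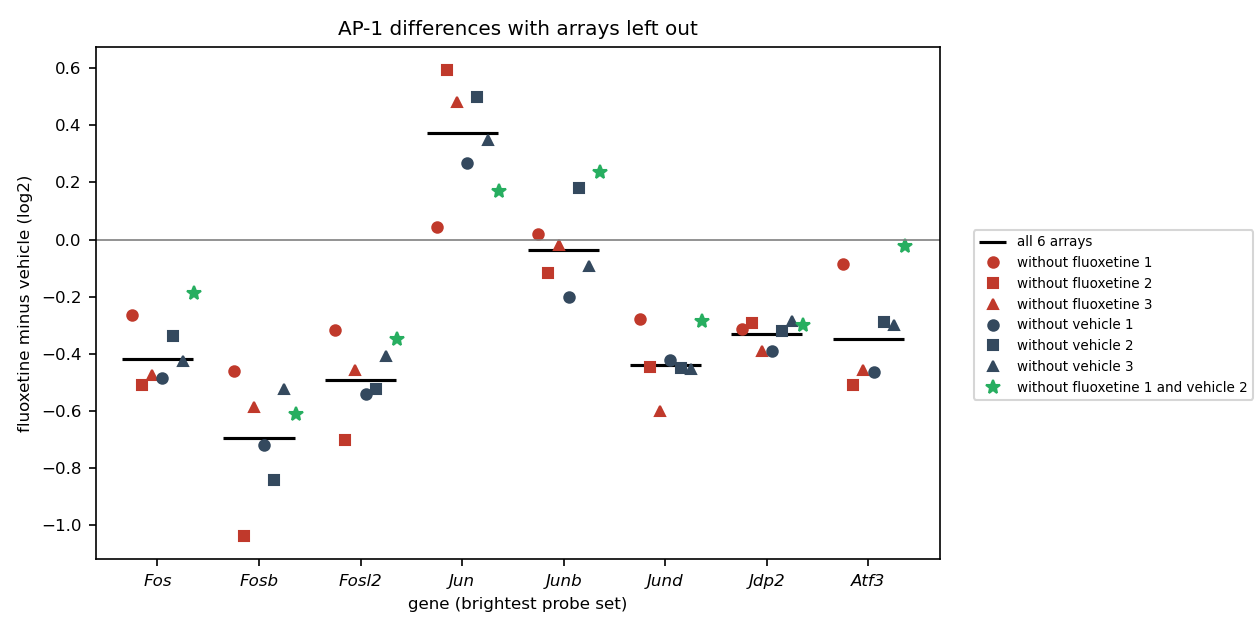
Fluoxetine minus vehicle in log2 for the brightest probe set of each gene with all 6 arrays (black line), with each array left out in turn, and without both fluoxetine 1 and vehicle 2 (star). Jdp2 stays between −0.39 and −0.28 when 1 array is left out, Jun and Atf3 come close to 0 without fluoxetine 1 (0.043 and −0.085), and Junb lies on both sides of 0.

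Genes connected to AP-1 were read from lists by role, each gene by its brightest probe set; none passed limma's adjusted test in any list. Among leucine zipper genes that pair with Fos or Jun, 9 of 10 tested were lower with fluoxetine (median −0.11 in log2), and 6 of 10 after either scaling. Batf, a partner of Jun best known from lymphocytes and the neighbour of Jdp2, was the exception. It was higher by 0.38 ± 0.15 (SE; unadjusted p = 0.039, adjusted p = 0.999), with log2 values of 6.93, 6.81 and 6.63 on fluoxetine arrays and 6.65, 6.33 and 6.23 on vehicle arrays. The lower genes of this list include a dim gene that passed the filter only through the vehicle arrays. With a minimum of 100 that gene and Batf drop out, and 8 of 8 were lower (median −0.11). Atf2, a Jun partner activated by stress kinases, differed by −0.37 ± 0.25. It stood at 12.92 on fluoxetine 1 and at 13.82 to 13.95 on the other five, and without fluoxetine 1 the difference was −0.067. Atf5, of the same family, differed by −0.19 ± 0.11. Its fluoxetine arrays all lay below its vehicle arrays, which held for 1 of the 10, against 5.23% of all tested probe sets. Fosl1, the remaining Fos gene, was below the filter, as were Batf2 and Maff.

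The kinases that switch on Fos and Jun or act on their proteins differed little. Of 11 tested 9 were lower, by a median of −0.05, close to that of all tested probe sets, and 5 of 11 after either scaling. Rps6ka3, a kinase downstream of ERK, differed by −0.22 ± 0.20 (log2, SE), Map2k2, which activates ERK, by −0.19 ± 0.14, and the stress kinase p38 gene Mapk14 by −0.11 ± 0.11. The 3 kinase genes for JNK, which phosphorylates Jun, lay at −0.02 for Mapk8, −0.13 for Mapk9 and 0.01 for Mapk10. The factors that bind the Fos promoter and its relatives had 8 of 12 lower (median −0.08), the same number after either scaling, but 5 of 12 without fluoxetine 2. Srf, the serum response factor, differed by −0.20 ± 0.12. Its fluoxetine arrays all lay below its vehicle arrays, which held for 1 of the 12, against 5.23% of all tested probe sets. Crem, a cyclic AMP responsive factor, differed by 0.18 ± 0.16 and Mrtfa, a partner of Srf, by 0.25 ± 0.23.

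Proteins that bind the AU-rich tail of Fos-type messages and set how fast they decay had 8 of 9 genes lower (median −0.13), and 7 and 8 after quantile normalization and the common median, but 5 without fluoxetine 3. Elavl1, whose protein stabilises such messages, differed by −0.20 ± 0.16 (log2, SE), Elavl2 by −0.15 ± 0.14 and Zfp36, whose protein promotes their decay, by −0.13 ± 0.13. Genes described elsewhere as AP-1 targets were mixed, 5 of 11 lower and 6 higher (median 0.04), with 3 lower after quantile normalization or without fluoxetine 1. Penk, the enkephalin precursor gene, stood at 11.50, 9.74 and 9.86 in log2 with fluoxetine, against 9.59, 9.23 and 9.72 with vehicle. Its difference of 0.85 ± 0.45 rested largely on fluoxetine 1, without which it was 0.29. Pdyn, the dynorphin precursor gene, differed by 0.53 ± 0.15 (unadjusted p = 0.010, adjusted p = 0.999 in limma), and by 0.49 without fluoxetine 1. For Penk and Pdyn, 2 of the 11, the fluoxetine arrays all lay above the vehicle arrays, against 2.83% of all tested probe sets. Nts, the neurotensin precursor gene, differed by −0.34 ± 0.18, and by −0.16 without fluoxetine 1.

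**Figure D5:**
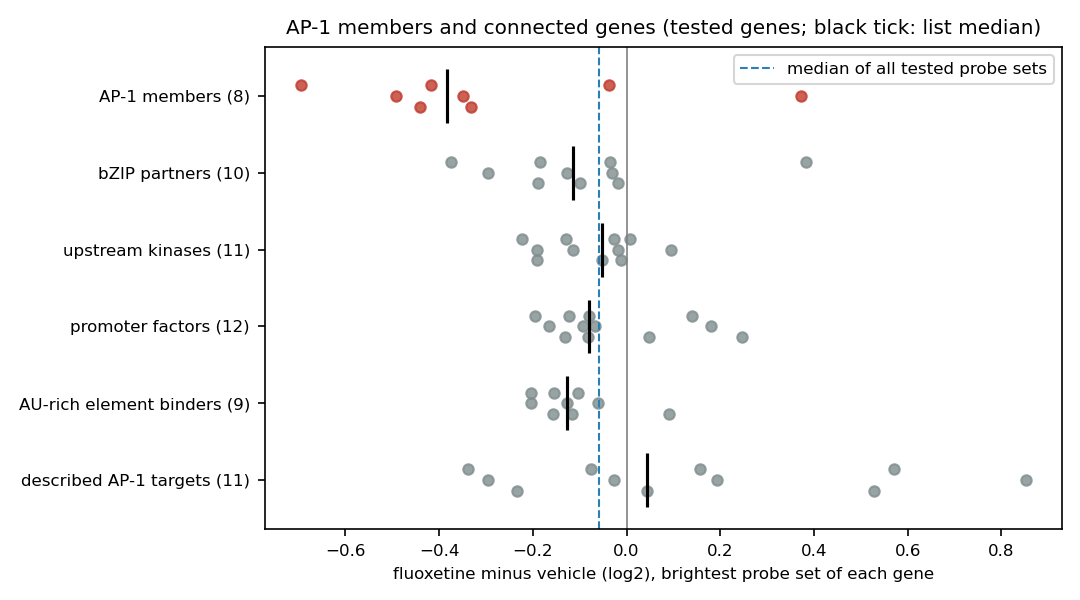
Fluoxetine minus vehicle in log2 for each tested gene of the AP-1 family and of 5 connected lists (number tested in brackets); black ticks are list medians and the dashed line is the median of all tested probe sets. The AP-1 median (−0.38) lies below those of the connected lists, which run from −0.13 to 0.04. It includes Fosb, which passed the filter only through the vehicle arrays, as did a dim gene of the leucine zipper list.

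Among 20278 other tested probe sets with a gene name, the genes whose course over the 6 arrays came closest to that of Fos were Ctnnal1, Samd4, Zdhhc2, Nts and Fundc1. Their root-mean-square distances from Fos, after centring each on its own mean, were 0.046 to 0.063 in log2, where Fos itself had an SD of 0.30 over the arrays. These distances are smaller than that of any other AP-1 member from Fos. Closest to Jun were Glt8d2, Litaf, Timp4, Qprt and Cyp1b1, at 0.068 to 0.090, where the second probe set of Jun was at 0.15. With 6 arrays, near matches among so many probe sets are easily found, and no test was attached to them.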

How the data were processed

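RNA from TRAP of mouse cortex, 15 ng per sample, went through 2 amplification cycles and onto single-colour Affymetrix arrays, per the labels. The deposited values are intensity per probe set, normalized by the authors with GCRMA per the submitters' processing notes (no version is stated there). It models background from probe sequence and makes arrays more alike, so low values sit near a floor and a shift shared by most genes is at least partly hidden. The linear scale was inferred from the values, 1.74 to 99076. Scanner files were not analysed here.

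Of 45101 probe sets 64 controls were left out; 34945 had 1 symbol in the platform annotation, 932 several and 9160 none. Values were taken to log2 without offset. Probe sets with a geometric mean of at least 50 over the 6 arrays (22326, 49.6%) were fitted in limma 3.58.1 under R 4.3.3 by lmFit and eBayes without a block, two-sided. P-values were adjusted by Benjamini-Hochberg over all of them, the threshold being 0.05. Standard errors had a median of 0.154 in log2, and the number of arrays limits precision. The fit was tested on simulated data.

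Genes were read from their brightest probe set. Named were all members, up to 3 genes per connected list by smallest unadjusted p, and the 5 genes nearest in course to Fos and to Jun; Mapk8, Mapk9, Mapk10, Fosl1, Batf2, Maff, Gfap, Sox9, Camk2a and Slc17a7 were added after their values were seen. One gene of the leucine zipper list is not reported here. Members and lists were chosen with earlier results of these data known. Promoter windows and motifs came from RefSeq sequences (GRCm38.p6), used apart from the array values, and all 8 members matched. Alternatives were the filter, an offset of 16, 2 scalings, the replicate number as a block, variance and weight settings, dropping probe sets whose suffix marks possible cross-matching, and leaving out arrays.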

Additional observations from a re-analysis of the deposited data

How the results depend on the processing

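Under all 17 alternatives none of the AP-1 probe sets passed the adjusted threshold, the smallest adjusted p being 0.742 without a filter, and 6 to 8 had lower means with fluoxetine (the 6 with a minimum of 100, which leaves 8 of them). Those at an unadjusted p under 0.05, 4 in the main analysis, numbered 3 without a filter, 1 with the replicate block and 0 after quantile normalization, with a common median, without any 1 of fluoxetine 1, vehicle 2 and vehicle 3, and without both fluoxetine 1 and vehicle 2. Of the 8 genes, each by its brightest probe set, only Junb changed sign: it was 0.011 after quantile normalization, 0.022 with a common median, and 0.24 without both fluoxetine 1 and vehicle 2. With each array left out in turn Junb ranged from −0.20 to 0.18 (0.019 without fluoxetine 1), Fos from −0.51 to −0.27, Fosb from −1.04 to −0.46, Fosl2 from −0.70 to −0.32, Jun from 0.043 to 0.59, Jund from −0.60 to −0.28, Jdp2 from −0.39 to −0.28 and Atf3 from −0.51 to −0.085. Among the connected genes named, Zfp36 turned to 0.032 without both arrays. Counts of lower genes in the connected lists moved by over 1.5 times in 8 of 85 cases, each to fewer lower genes. The cause of these shifts was not tested. Same-numbered arrays did not deviate together (correlations of −0.25, −0.03 and −0.50 over tested probe sets for numbers 1, 2 and 3). Between arrays of different numbers the correlations ran from −0.27 (fluoxetine 1 with vehicle 2) to 0.43 (fluoxetine 1 with vehicle 3). The deviations were taken from means of only 3 arrays. They cannot show whether same-numbered samples were collected or processed together. With the replicate block, the difference of Jdp2 stayed −0.33 with an unadjusted p of 0.062 and that of Fos −0.42 with 0.033. Fosb is dim and close to the filter, and of the tested AP-1 probe sets it had the widest range over the arrays (1.51 in log2) and the largest SE (0.31).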
